A study of Procambarus clarkii with 12 samples.

Results

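The clusters described here are the gene clusters that stood higher in every cadmium-exposed library than in every unexposed one, in RNA-seq of the hepatopancreas of male red swamp crayfish (*Procambarus clarkii*). A gene cluster is a set of assembled transcript sequences counted as 1 gene. CPM is a cluster's estimated count per 1000000 estimated counts of its library. Membership required a mean over the 12 libraries from 5 to under 1000 CPM, a lowest value among the 9 cadmium libraries above the highest of the 3 controls, and a mean log2(CPM + 1) in cadmium libraries at least 1 above that in controls. The rule was met by 85 of 176325 clusters. The controls were held with no cadmium and the exposed crayfish with 2, 5 or 10 mg/L for 72 h, and each of these 4 groups had 3 libraries. All animals were male, and no strain, age or body size is stated in the labels. Whether each library holds RNA of 1 animal or a pool is not stated, so p-values measure only the spread between these libraries.

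The hepatopancreas is the digestive and storage gland of crustaceans, where metals taken up with food and water accumulate. Cadmium binds sulfhydryl groups and displaces zinc and other metals from proteins, and animal cells are known to answer it with metal-binding metallothioneins, glutathione-dependent enzymes and heat shock proteins. Whether any cluster described here encodes one of these is not known, because the deposited tables pair no identifier with a gene name. Of the 85 identifiers, 0 matched the RefSeq gene table of the crayfish. The number over all clusters was also 0, so this says nothing particular about the 85. Clusters are therefore described by level, pattern and implied length, and 4 of them by identifier. No sequence of a cluster was used here. Markers of hepatopancreas or other cell types could not be looked up. In whole tissue, more cells of a type and more RNA per cell cannot be told apart.

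Library totals ran from 15835744 to 21653867 estimated counts. The libraries at 2 and 10 mg/L, at 15835744 to 17480371, were all shallower than the controls and the 5 mg/L libraries, at 19011151 to 21653867, so depth and these doses cannot be told apart. TMM scaling factors, which correct totals for a few very abundant clusters, ran from 0.807 in 10 mg/L replicate 3 to 1.15 in 10 mg/L replicate 1. These extremes fell within a single group, and 10 mg/L replicate 3 stood apart from the other libraries of its dose in many results below.

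The rule itself chose clusters for a higher level under cadmium, so the difference from the controls is given as a description with no test. Of the 12004 clusters in the CPM band, 129 or 1.07% had all cadmium libraries above all controls, and 85 or 0.708% also met the difference of at least 1. The other 44 separated clusters differed by less. The difference in mean log2(CPM + 1) between cadmium and control libraries had a median of 1.64 over the 85 clusters and ran from 1.02 to 4.81. It was under 2 in 59 clusters, from 2 to under 3 in 10, and 3 or more in 16. Most clusters were of modest level, with a mean under 10 CPM in 28, from 10 to under 100 CPM in 47 and of at least 100 CPM in 10.

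**Figure D1:**
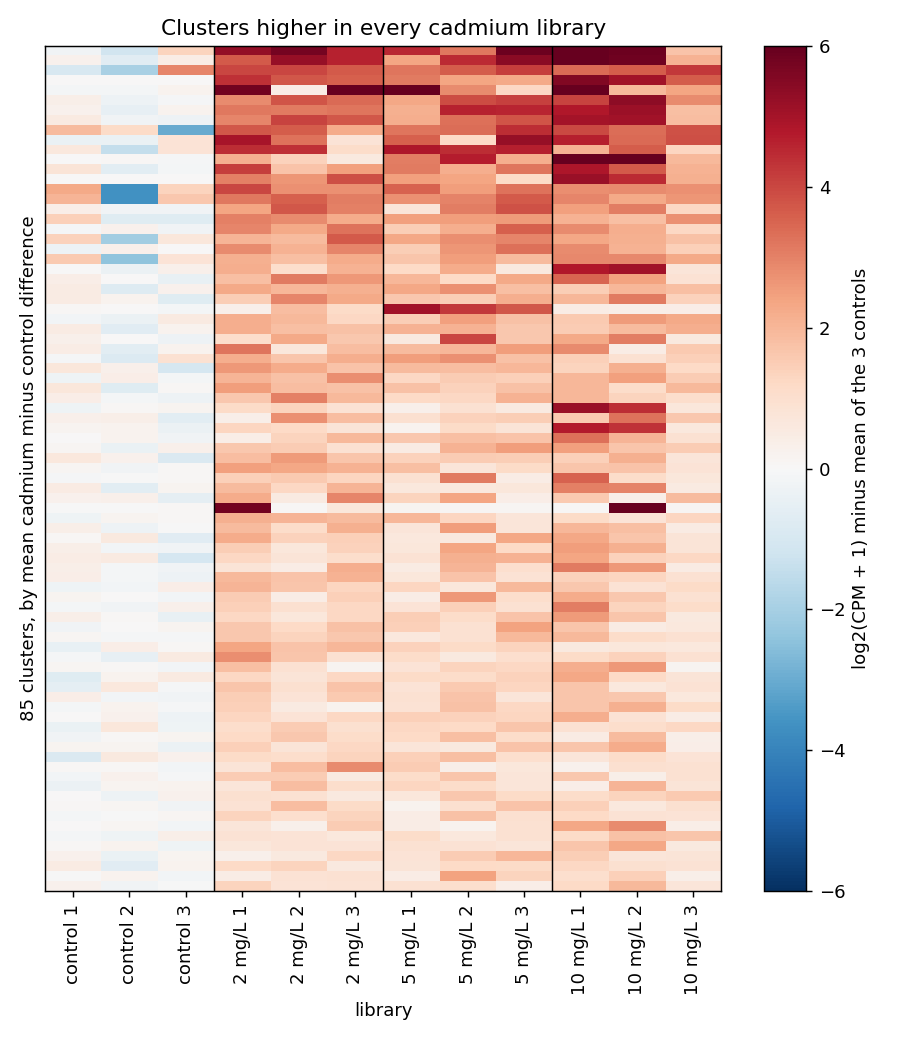
Level of each of the 85 clusters (rows, largest mean difference at the top) in each of the 12 libraries (columns, controls and then rising dose), as log2(CPM + 1) minus the mean of the 3 controls, with colours capped at 6. Every cadmium library is above the controls by the rule; the darkest cells lie in the upper rows, in 10 mg/L replicates 1 and 2 more often than in 10 mg/L replicate 3.

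The 85 clusters together summed to 904 to 1342 CPM in controls, 4225 to 5535 CPM with 2 mg/L, 3567 to 5439 CPM with 5 mg/L and 3115 to 6825 CPM at 10 mg/L. The mean was 1136 ± 220.1 CPM in controls, 4811 ± 666 CPM with 2 mg/L, 4500.2 ± 936 CPM with 5 mg/L and 5087 ± 1866 CPM with 10 mg/L (SD, n = 3 each). The cadmium groups overlapped one another widely, and 10 mg/L held both the highest and the lowest cadmium library. The 3 clusters with most reads held 33.7% of the sum with 2 mg/L and 27.2% with 10 mg/L. The median difference from the controls on the log2(CPM + 1) scale was 1.72 with 2 mg/L, 1.42 with 5 mg/L and 1.67 with 10 mg/L, beside 0.10, 0.04 and 0.05 over all 12004 clusters of the band. The 3 comparisons share their controls.

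The cluster with most reads shows what a high level in this set looked like. It had 91.7, 115 and 81.1 CPM in controls, 719, 461 and 927 CPM with 2 mg/L, 266.5, 428 and 1155 CPM with 5 mg/L and 691, 428 and 228 CPM with 10 mg/L. Its lowest cadmium library stood 1.97 times above its highest control, and its cadmium libraries differed among themselves by 5.07 times. The cluster with the largest difference, 4.81 on the log2 scale, had 1.75, 0.438 and 6.93 CPM in controls, 121, 165 and 77.5 CPM with 2 mg/L, 70.4, 27.6 and 186 CPM with 5 mg/L and 280.3, 187 and 9.43 CPM with 10 mg/L. Here 10 mg/L replicate 3 lay close to the highest control and far below every other cadmium library. The implied length of this cluster, described below, was 33.9 bases. The steadiest cluster under cadmium had 68.7, 29.8 and 55.4 CPM in controls, 227, 169 and 164 CPM with 2 mg/L, 209, 212 and 150 CPM with 5 mg/L and 143, 182 and 225 CPM with 10 mg/L. Its cadmium libraries spanned 1.58 times, with no order by dose.

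The gap between the groups was narrow for most of the set. The lowest cadmium library stood above the highest control by a median of 1.22 times over the 83 clusters with counts in a control. The gap was under 1.2 times in 37 of the 85, and at least 2 times in 9, among which 2 had no counts in any control. In 30 clusters the 95% exact Poisson intervals of the lowest cadmium library and of the highest control did not meet, and in 55 they overlapped. These intervals cover counting error only, and they belong to the libraries that the rule itself required to be separated. The same count was not taken over the band. The spread among cadmium libraries was wider than the gap, since the highest of them exceeded the lowest by a median of 4.15 times. It exceeded it by less than 3 times in 23 clusters and by more than 10 times in 19.

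**Figure D2:**
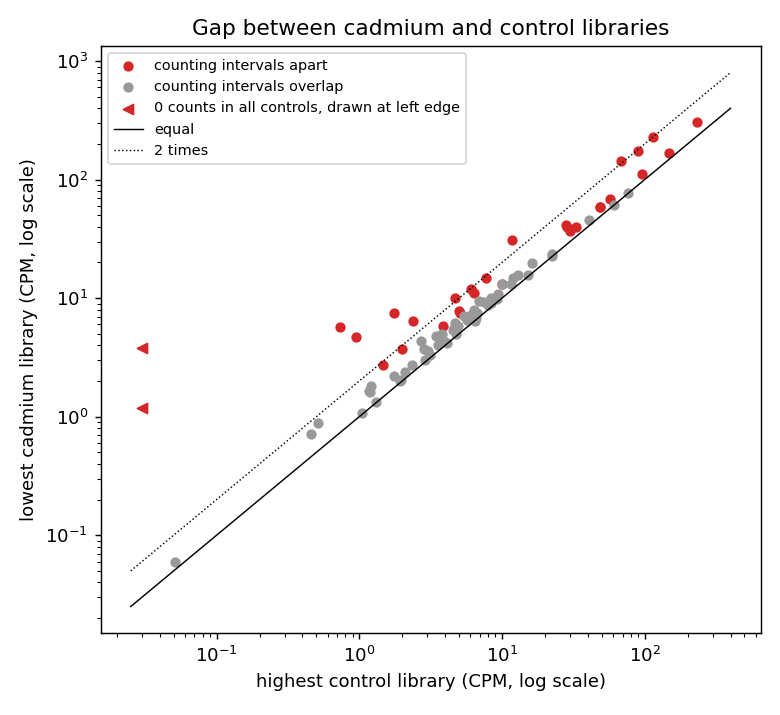
Lowest of the 9 cadmium libraries against highest of the 3 controls for each of the 85 clusters, in CPM on log axes, with lines at equality and at 2 times. Most points lie close to the line of equality; 30 clusters are red, with counting intervals apart, and 2 at the left edge had no counts in any control.

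Clusters at the edge of the rule show how small the gap could be. The narrowest gap inside the rule was 6.48 CPM in the lowest cadmium library against 6.47 CPM in the highest control. Just outside lay a cluster of the band at 10.19 CPM in both, with the cadmium library lower and a log2 difference of 1.66. The smallest difference inside was 1.02, and the largest outside among separated clusters was 0.97. The lowest mean inside was 5.26 CPM, and the highest outside was 4.95 CPM. A further 38 clusters met the rule but for a mean under 5 CPM, and 0 met it with a mean of 1000 CPM or more. One member was barely detected in most cadmium libraries. It had 54.4 CPM in 2 mg/L replicate 1 and 86.3 CPM in 10 mg/L replicate 2, at most 0.648 CPM in the other 7 cadmium libraries, and at most 0.0513 CPM in the controls. In that cluster the lowest cadmium library and the highest control held 1 count each.

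The 9 clusters with a gap of at least 2 times kept the separation and the difference of at least 1 under every scaling tried. For TMM their separation was fixed in advance, since factors from 0.807 to 1.15 could not close such a gap. The 2 without counts in the controls are described first. The first had 20.2, 12.2 and 10.9 CPM at 2 mg/L, 7.58, 4.13 and 3.78 CPM at 5 mg/L and 46.3, 31.4 and 11.2 CPM at 10 mg/L. With 3 counts summed over all controls taken as the limit, 0.049 CPM, its means were at least 294-fold higher with 2 mg/L, at least 105-fold higher with 5 mg/L and at least 605-fold higher with 10 mg/L. The second had 7.06, 5.20 and 13.6 CPM at 2 mg/L, 4.5, 4.09 and 1.19 CPM at 5 mg/L and 35.5, 21.0 and 3.37 CPM at 10 mg/L. Its means were at least 176-fold, at least 66.6-fold and at least 407-fold higher against the same limit. This limit covers counting error only, while the counts are estimates, so the folds of the 2 clusters hold only against it. Whether reads of these clusters were counted under others in the controls was not tested. In each of them the mean at 10 mg/L rested mostly on replicates 1 and 2. Both shared an order, lowest at 5 mg/L and highest on average at 10 mg/L, while 10 mg/L replicate 3 lay within the range of the 2 mg/L libraries in the first and below it in the second.

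Among the other 7, the widest gap was 7.79 times. That cluster had 0.729, 0.0715 and 0.287 CPM in controls, 8.48, 17.4 and 13.3 CPM with 2 mg/L, 5.67, 19.2 and 22.1 CPM with 5 mg/L and 21.2, 53.4 and 8.64 CPM with 10 mg/L. The next, with a gap of 4.95 times, had 0.945, 0.146 and 0.852 CPM in controls, 13.4, 12.9 and 14.1 CPM with 2 mg/L, 5.95, 37.8 and 37.0 CPM with 5 mg/L and 43.5, 55.8 and 4.68 CPM with 10 mg/L. The one after it, with a gap of 4.25 times, had 1.40, 0.260 and 1.76 CPM in controls, 25.2, 75.6 and 49.6 CPM with 2 mg/L, 9.58, 44.5 and 85.4 CPM with 5 mg/L and 168, 116 and 7.50 CPM with 10 mg/L. The implied lengths of these 3 clusters, described below, were only 4.85, 13.9 and 82.2 bases in the same order. In all 3 clusters control replicate 2 was the lowest library of all. In the last 2 of them, 10 mg/L replicate 3 was the lowest cadmium library. The remaining 4 had gaps of 2.08 to 2.71 times.

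A control without any count occurred in 12 of the 85 clusters, or 14.1%, beside 13.6% of the band. It was 1 control in 6 clusters, 2 in 4 and all 3 in 2. In 5 clusters a control at 0 stood beside another control over 5 CPM, which widened the mean difference. Over these 5 clusters the log2 difference ran from 2.25 to 3.52 with all controls, and from 1.04 to 2.00 without the controls at 0. One of these had 57.2, 0 and 30.3 CPM in controls, 197, 81.1 and 80.2 CPM with 2 mg/L, 142, 68.7 and 117 CPM with 5 mg/L and 83.4, 85.1 and 80.8 CPM with 10 mg/L. Another had 49.0, 0 and 36.1 CPM in controls, 110, 147 and 103 CPM with 2 mg/L, 81.6, 96.5 and 158 CPM with 5 mg/L and 92.7, 59.2 and 75.5 CPM with 10 mg/L. Their gaps were 1.2 and 1.21 times, and both were missing from control replicate 2. Their implied lengths were 6310 and 6307 bases. Whether such clusters share reads, being copies or variants of 1 gene, was not tested, and their split of counts is uncertain.

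Each library was also left out in turn, the rule applied to the other 11 and the left-out library compared with the rest. A left-out cadmium library lay above every control in 68.0% (10 mg/L replicate 3) to 90.1% (2 mg/L replicate 1) of the clusters so chosen, and in 20.0% to 38.3% of all clusters of the band. A left-out control lay below every cadmium library in 35.6%, 58.3% and 44.6% of the clusters chosen without control replicates 1, 2 and 3, and in 5.81%, 12.8% and 9.01% of the band. The clusters chosen without them numbered 253, 151 and 193. Leaving out a cadmium library gave 89 to 130. Without control replicate 1 the set was about 3 times as large. The median log2 difference between the cadmium libraries and the left-out control was 0.79, 1.02 and 0.89, beside 1.65, 1.60 and 1.67 for the libraries that chose the clusters. A left-out library is still compared with libraries that took part in the choice, and this favours a higher share than in the band. The percentages of the band are therefore a background and not a level without any difference. The comparison is a description and not a test of the set.

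**Figure D3:**
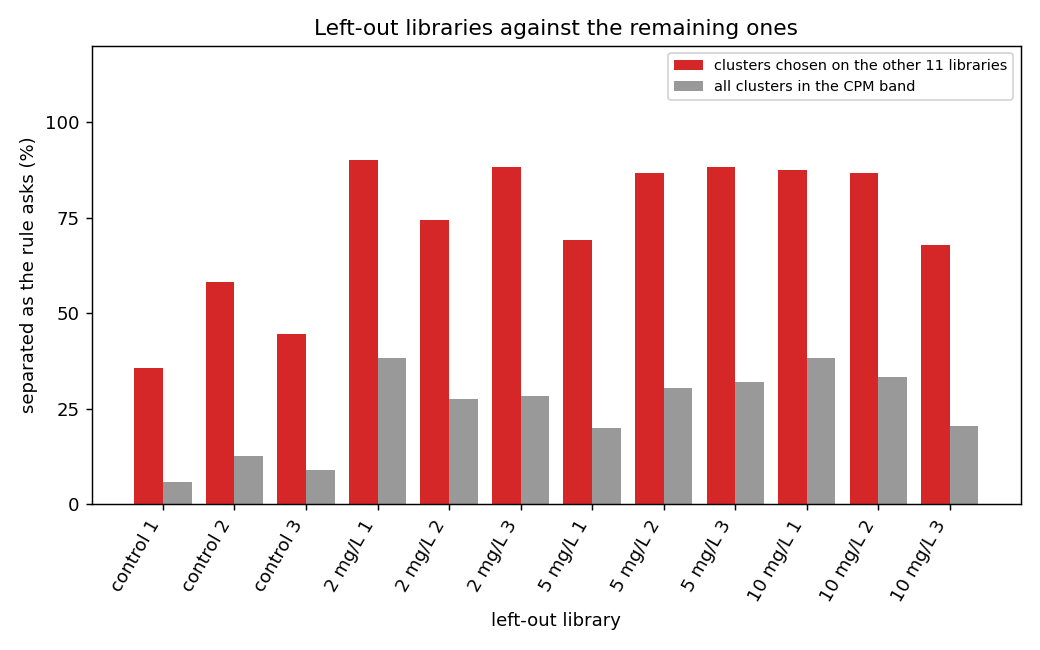
Share of clusters in which a left-out library was separated as the rule asks, for clusters chosen on the other 11 libraries (red) and for all clusters in the CPM band (grey), by left-out library. Red bars reach 35.6% to 58.3% for the controls and 68.0% to 90.1% for the cadmium libraries. Each is higher than its grey bar, which the choice itself favours, so the bars are a description and not a test.

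The order of the 3 doses was not used by the rule, although it required all 9 cadmium libraries to be high, which limits how far doses can differ. No cluster of the set passed edgeR's test between doses. For 10 against 2 mg/L, edgeR's quasi-likelihood test with Benjamini-Hochberg adjustment over 57151 clusters called 0 of 85, beside 0.0122% of all clusters, and the smallest adjusted p was 0.349. An unadjusted p under 0.05 was reached by 10 of the 85, 7 higher, beside 5.87% of all, and 3 lower, beside 5.04%. For 5 against 2 mg/L it called 0, beside 0.0105% of all, with 2 higher at an unadjusted p under 0.05, beside 3.66%, and 7 lower, beside 2.17%. For 10 against 5 mg/L it called 0, beside 0.0105%, with 9 higher at an unadjusted p under 0.05, beside 3.69%, and 2 lower, beside 4.62%. For a slope on log2 dose over the 9 cadmium libraries edgeR called 0, beside 0%, with 6 positive slopes at an unadjusted p under 0.05, beside 5%, and 2 negative ones, beside 2.7%. DESeq2 called 4, 1 and 6 of the 85 in the 3 comparisons and 2 for the slope, beside 5.25%, 2.13%, 3.36% and 2.98% of all clusters. Limma-voom called 0 in each. Without 10 mg/L replicate 3, edgeR called 3 for 10 against 2 mg/L and 2 for 10 against 5 mg/L, all higher at 10 mg/L, beside 0.23% and 0.288% of 69180 clusters. It called 0 for 5 against 2 mg/L, beside 0.00145%, and 0 for the slope, beside 0%.

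All 3 libraries at 10 mg/L lay above all 3 at 2 mg/L in 3 of 85 clusters, beside 7.14% of the band, and below them in 6, beside 13%. All 5 mg/L libraries lay above all 2 mg/L libraries in 2, beside 5.41%, and below them in 7, beside 8.53%. All 10 mg/L libraries lay above all 5 mg/L libraries in 3, beside 4.56%, and below them in 5, beside 7.21%. On the log2(CPM + 1) scale the mean was highest with 2 mg/L in 33 clusters, with 5 mg/L in 16 and with 10 mg/L in 36, beside 37.9%, 25.5% and 36.6% of the band. In 20 clusters, beside 19.2% of the band, the mean was higher at each higher dose, and in 17, beside 22.3%, it was lower at each higher dose.

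The clusters with the largest and the smallest difference between 10 and 2 mg/L show the range. Cluster-27942.68361 had 2.60, 2.73 and 2.41 CPM in controls, 14.6, 8.34 and 4.35 CPM with 2 mg/L, 28.9, 93.6 and 15 CPM with 5 mg/L and 631, 408 and 13.0 CPM with 10 mg/L. Its 10 mg/L replicate 3 lay within the range of the 2 mg/L libraries, while the other 2 exceeded every other library. The log2 fold change of 10 against 2 mg/L was 5.18 with standard error 1.17 (edgeR adjusted p = 0.349), and 5.70 without 10 mg/L replicate 3 (edgeR adjusted p = 0.0347). The next, Cluster-27942.78983, had 2.46, 3.31 and 3.59 CPM in controls, 8.02, 9.23 and 6.52 CPM with 2 mg/L, 4.03, 6.70 and 4.94 CPM with 5 mg/L and 146, 87.3 and 5.57 CPM with 10 mg/L. Its log2 fold change was 3.19 with standard error 0.81 (edgeR adjusted p = 0.372), and 3.69 without 10 mg/L replicate 3 (edgeR adjusted p = 0.0200). That library again lay apart from the other 2, within the range of the 5 mg/L libraries. DESeq2 called both, with adjusted p = 3.05e-05 and 0.00243, and over 19 alternatives the adjusted p reached 0.62 and 0.636.

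At the other end, Cluster-27942.59804 had 53.8, 96.4 and 78.0 CPM in controls, 385, 244 and 302 CPM with 2 mg/L, 193, 166 and 190.1 CPM with 5 mg/L and 113, 121 and 115 CPM with 10 mg/L. The 3 dose groups did not overlap and the highest level was at the lowest dose. This cluster did not keep its membership under every scaling tried. The log2 fold change of 10 against 2 mg/L was -1.38 with standard error 0.33 (edgeR adjusted p = 0.372), and the slope per doubling of the dose was -0.59 with standard error 0.11 (edgeR adjusted p = 0.359). DESeq2 called its difference between 10 and 2 mg/L with adjusted p = 0.00108, and over 19 alternatives the adjusted p reached 0.646. The other, Cluster-27942.81101, had 2.36, 2.34 and 1.87 CPM in controls, 4.45, 10.4 and 21.5 CPM with 2 mg/L, 8.23, 3.01 and 4.12 CPM with 5 mg/L and 2.75, 5.26 and 5.05 CPM with 10 mg/L. Here the dose groups overlapped, and membership was again lost under at least 1 scaling. Its log2 fold change was -1.48 with standard error 0.68 (edgeR adjusted p = 0.467), and -0.72 without 2 mg/L replicate 3, its highest library (edgeR adjusted p = 0.756). Over its 19 alternatives the adjusted p ran from 0.239 to 0.756.

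**Figure D4:**
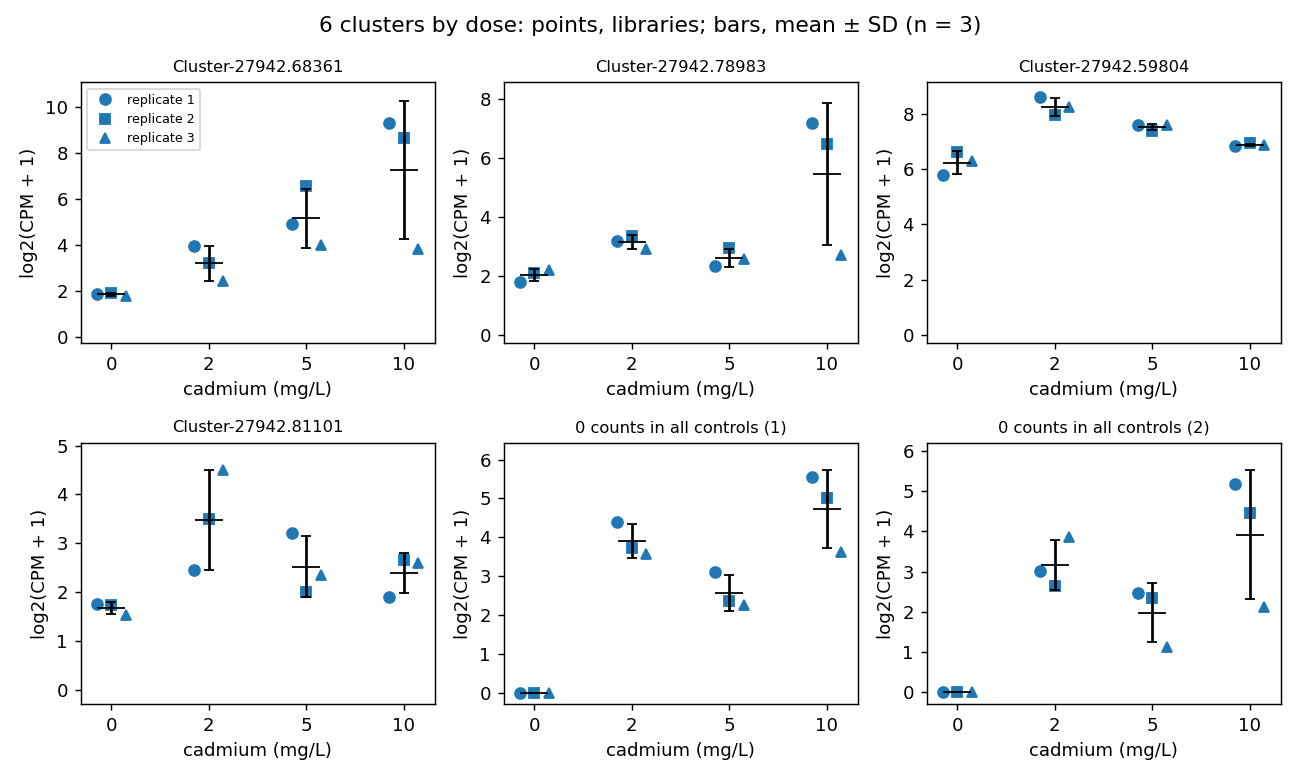
Level of 6 clusters by dose as log2(CPM + 1): the 4 named by identifier and the 2 with no counts in the controls. Points are libraries, with a symbol for each replicate number, and bars give the mean ± SD (n = 3); in the 2 top left panels 10 mg/L replicate 3 lies far below replicates 1 and 2, and Cluster-27942.59804 steps down from 2 to 10 mg/L.

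In 1 cluster every 5 mg/L library lay above every 2 and 10 mg/L library, and in 1, the first of those without counts in the controls, every one lay below. The same counts were not taken over the band, so they say nothing particular about the set. The cluster that was higher had 1.18, 1.17 and 0.971 CPM in controls, 1.64, 6.55 and 3.61 CPM with 2 mg/L, 67.5, 38.7 and 26.5 CPM with 5 mg/L and 1.89, 1.65 and 1.78 CPM with 10 mg/L. At 10 mg/L it lay only just above the controls, and no 5 mg/L library overlapped with another group. The log2 fold change of 10 against 5 mg/L was -4.64 with standard error 0.64 (edgeR adjusted p = 0.130), the smallest adjusted p of the set between doses. For 5 against 2 mg/L it was 3.47 with standard error 0.61 (edgeR adjusted p = 0.312). This cluster was chosen for mention after its values were seen, and it too lost its membership under at least 1 scaling.

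Within 10 mg/L a split between replicates was seen in the set and also across the band. By CPM, replicate 3 was the lowest of the 3 libraries in 55 of 85 clusters, or 64.7%, beside 46.2% of the band. After TMM scaling it was the lowest in 41, beside 32.2%. Replicates 1 and 2 were the 2 highest of all 9 cadmium libraries in 17 clusters, or 20.0%, beside 13.1% of the band. In 14 clusters, or 16.5%, beside 11.7% of the band, both exceeded replicate 3 by more than 4 times. There the mean of the 2 stood 4.95 to 40.1 times above replicate 3, with a median of 9.91 times. In these 14 clusters replicate 3, which the rule placed above every control, exceeded the highest one by a median of 1.38 times where a control had counts. The mean of replicates 1 and 2 was a median of 1.96 times the highest library at 2 or 5 mg/L. Replicate 3 was the lowest of the 9 cadmium libraries in 22 clusters, or 25.9%, beside 17.4% of the band. It was the highest in 1, or 1.18%, beside 6.86%.

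The median coefficient of variation over the set was 36.4% in the controls (83 clusters with counts), 33.0% with 2 mg/L, 37.5% with 5 mg/L and 48.6% with 10 mg/L. Over the band it was 34.5%, 33.8%, 40.1% and 48.4% in the same order. Controls were highest in replicate 1 in 39 clusters, in replicate 2 in 23 and in replicate 3 in 23, beside 49.9%, 22.3% and 27.8% of the band.

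Length was a property that the rule did not use. The length by which the deposited estimated count and FPKM of a cluster are related had a median of 1154 bases over the 85 clusters and 1828 bases over the band. It was under 200 bases in 17 of 85 clusters, or 20.0%, beside 8.15% of the band, and over 3000 bases in 15, or 17.6%, beside 27.0%. Of the 9 clusters with a gap of at least 2 times, 6 had an implied length under 200 bases and 2, those without counts in the controls, had 2890 and 2423 bases. Lengths of a few bases, down to 2.30, are shorter than a read can be. They are the divisor used for FPKM and not the length of a sequence. In the 17 short clusters this divisor differed between libraries by a median of 1.70 times and by up to 3.75 times. In the other 68 it differed by a median of 1.02 times. Relative to each short cluster's own median, it had a median of 1 in controls, 0.957 with 2 mg/L, 1.17 with 5 mg/L and 1.27 with 10 mg/L. The part of this difference in the levels of the short clusters was not tested.

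**Figure D5:**
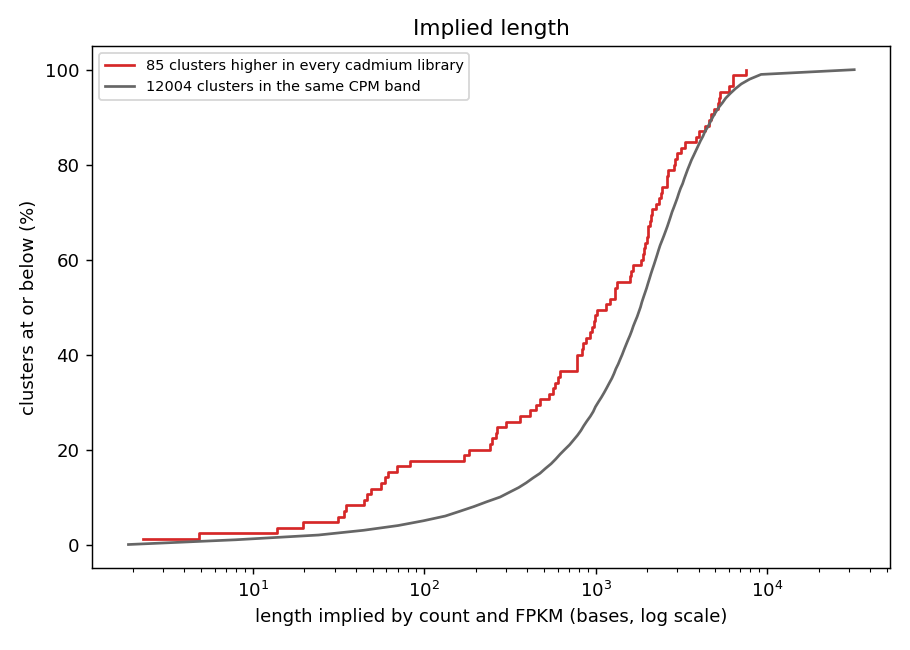
Cumulative share of clusters by the length that relates their deposited count and FPKM, in bases on a log axis, for the 85 clusters (red) and the 12004 clusters of the CPM band (grey). The red line lies to the left, with 20.0% of the set and 8.15% of the band under 200 bases.

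A small divisor gives a high FPKM by construction. The short clusters made up 14 of the 17 highest mean FPKM values of the set, and their median was 569 FPKM against 9.17 FPKM in the other 68, while their median CPM was 17.1 against 15.4. The highest was 4410 FPKM, with an implied length of 31.3 bases, in the cluster that varied least under cadmium. With divisors this small and uneven, FPKM of the short clusters is uncertain. Whether their estimated counts, and so their CPM, are sound was not tested. Their median gap in CPM was 1.40 times, against 1.21 times in the others, and their median log2 difference 1.94 against 1.48.

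All 85 identifiers had the same first number, as did 99.2% of the band. Counts were whole numbers in every library with counts in 16 clusters, or 18.8%, beside 19.5% of the band. Neighbouring identifiers, 1 apart, occurred in 1 pair, so 2 of the 85 clusters, and 10 had another member within 10 numbers. No such counts were taken over the band, so whether these are unusual is not known.

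Membership depended on how libraries were scaled. With TMM-scaled CPM 89 clusters met the rule and 62 of them were among the 85. With DESeq2 size factors the numbers were 92 and 64. With FPKM in place of CPM, except for the band of mean CPM, they were 69 and 66. Under all 4 measures 53 of the 85 kept the separation and the difference of at least 1, with the mean band not applied again. Of these, 27 had counting intervals apart as well. The 32 others lost the separation or the difference of at least 1 under at least 1 scaling. Of the 17 short clusters 9 were kept under all 4, and of the other 68 it was 44.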

How the data were processed

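The authors deposited, per the file headers, an estimated count and an FPKM value per gene cluster for each of 12 libraries. The estimated counts are not normalized, and FPKM is the deposited count scaled by length and depth. Per the labels' protocols, frozen tissue was extracted with Tri Reagent and libraries were made by standard Illumina methods. The assembler, aligner and counter are not named in the sources read.

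CPM used each file's total. Groups were taken from sample titles. Estimated counts were rounded to whole numbers, filtered with filterByExpr (minimum count 10, minimum total 15; all 85 members passed), scaled by TMM and fitted over 12 libraries by group with edgeR 4.0.16 (glmQLFit, glmQLFTest). Benjamini-Hochberg adjustment ran over all 57151 clusters tested, with a threshold of 0.05. The dose slope was fitted to the 9 cadmium libraries (48862 clusters). Each standard error was taken as the absolute log2 fold change over the square root of F. The common biological coefficient of variation was 1.12. Implied length is the median over libraries with at least 5 counts and 0.2 FPKM (10 counts and 1 FPKM where libraries were compared). Alternatives used DESeq2 1.42.0, limma 3.58.1, other scalings, no filter, the replicate number as a block and libraries left out. The fits were also run on simulated data with a much smaller spread than the 1.12 found here. That run therefore does not show how well changes between these libraries could be detected. Fits ran in R 4.3.3, and tables and figures were made in Python 3.11.15 with pandas 2.3.3, numpy 2.4.6, matplotlib 3.10.9 and scipy 1.17.1.

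The members, lists and comparisons were chosen with earlier results of these data known. Identifiers were printed for the 2 members with the largest and the 2 with the smallest mean log2(CPM + 1) at 10 minus 2 mg/L. Other members are described by their place in an order.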

Additional observations from a re-analysis of the deposited data

How the results depend on the processing

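The rule was met by 46 clusters with a pseudocount of 5 and by 26 with a least difference of 2, both within the 85. It was met by 88 with a pseudocount of 0.5, 123 with a lowest mean of 1 CPM and 57 with one of 10 CPM. Without each library in turn it was met by 89 to 253 clusters, of which 77 to 85 were among the 85. The 253 came without control replicate 1, 151 and 193 without control replicates 2 and 3, and 130 and 128 without 5 mg/L replicate 1 and 10 mg/L replicate 3. Counts called between doses were 0 by edgeR under DESeq2 size factors, library size alone, no low-count filter and only the cadmium libraries. DESeq2 called 4 for 10 against 2 mg/L, 1 for 5 against 2 mg/L, 6 for 10 against 5 mg/L and 2 for the slope. With libraries left out edgeR called 0 to 3 for 10 against 2 mg/L, 0 to 2 for 10 against 5 mg/L, and 0 to 0 for 5 against 2 mg/L and the slope. The 3 and 2 came without 10 mg/L replicate 3. With the replicate number as a block 0 were called in each comparison. Of 18 correlations of deviations between same-numbered libraries, 0 exceeded 0.1 (from -0.10 to 0.06). With 3 libraries per group, these values cannot settle whether equal numbers mark paired samples. The summed CPM at 10 over 2 mg/L was 1.06, 1.03 with TMM and 0.907 with FPKM, and ran from 0.877 to 1.26 without each library. Chosen after the data were seen were the other scalings of the dose and replicate orders, of the separation and of the medians by dose, and the comparison of each left-out library with the rest. In 55 of 85 clusters the counting intervals of the lowest cadmium library and of the highest control overlapped. Whether depth set the width of the gaps was not tested. What lay behind these changes was not tested.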
